A study of Rattus norvegicus with 20 samples.

Results

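Collagen chain genes encode the alpha chains of the collagens, the main structural proteins of the extracellular matrix. The members were the protein-coding genes whose symbol in the tacrolimus table is Col, a number, a and a number. This rule found 42 of the 32883 genes listed there (22250 of them protein-coding): 10 chains of fibrillar collagens, the 6 chains of the basement membrane collagen IV, and 26 others. All 42 were also found in the cyclosporine A table by Ensembl gene identifier, 2 of them (Col4a3 and Col15a1) under another symbol. Col1a2 and Col6a3 carry other names in the tacrolimus table and so fall outside the rule. Their values are given by identifier beside their partner chains and are not counted among the members.

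The study compared 2 calcineurin inhibitors, immunosuppressants whose long use can harm the kidney. Wild-type male Wistar rats aged 10 to 12 weeks received drug or vehicle for 28 days from a minipump under the skin, and RNA of the whole kidney was sequenced. Cyclosporine A (n = 4) was set against saline vehicle (n = 4). Tacrolimus (n = 6, target trough 3.5 ng/ml) was set against a vehicle of 25% DMSO and 75% PEG (DMSO/PEG vehicle, n = 6). Drug, vehicle and table change together, so each drug was compared with its own vehicle within its own table. The labels number the replicates and do not say which animal each came from, so p-values measure the spread between these samples.

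Collagen chains join into helical trimers inside the cell and are secreted. Fibrillar collagens such as types I and III form the fibres of the interstitium and are made mainly by fibroblasts and related mesenchymal cells; they accumulate when the kidney scars. Collagen IV forms the sheet of basement membranes. Its chains alpha1 and alpha2 are found in nearly all basement membranes. Chains alpha3, alpha4 and alpha5 form the network of the mature glomerular filter, where podocytes make them, and mutations in them cause Alport syndrome.

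The 6 collagen IV genes lie in head-to-head pairs, the genes of a pair read away from each other. In the deposited tables, on build rn6 per the submitters' processing notes, Col4a2 (chr16:83387364-83438561, minus strand) faces Col4a1 (chr16:83522162-83632153, plus strand). Col4a4 (chr9:88232455-88357182, minus strand) faces Col4a3 (chr9:88357556-88485830, plus strand). The gene models of rn6 place the starts of Col4a1 and Col4a2, and those of Col4a5 and Col4a6, much farther apart than the RefSeq models of GRCr8 do, so the shared bases hold for GRCr8 only. RefSeq promoter windows (GRCr8, 250 bases before to 50 after each start) were matched by symbol for 33 of the 42 members. The windows of Col4a1 and Col4a2 share 176 bases and their starts lie 77 bases apart. Those of Col4a3 and Col4a4 share 88 bases with starts 413 bases apart, and those of Col4a5 and Col4a6 on chromosome X share 0 bases with starts 1415 bases apart. Over all 27457 symbols with a window, 9.67% have one that overlaps a window on the other strand. The windows of the pairs that share bases are printed 5′ to 3′ on each gene's own strand, because the levels of these pairs are compared over samples; capitals mark the bases shared with the partner's window.
Col4a1, chr16:84885347-84885646, plus strand: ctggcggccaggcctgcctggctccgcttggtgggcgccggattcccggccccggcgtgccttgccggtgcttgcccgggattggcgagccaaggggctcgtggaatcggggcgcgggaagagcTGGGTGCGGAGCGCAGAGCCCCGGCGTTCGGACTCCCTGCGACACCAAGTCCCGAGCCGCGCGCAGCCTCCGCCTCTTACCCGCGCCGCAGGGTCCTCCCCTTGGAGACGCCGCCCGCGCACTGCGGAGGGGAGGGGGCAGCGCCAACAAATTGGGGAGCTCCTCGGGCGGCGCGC
Col4a2, chr16:84885471-84885770, minus strand: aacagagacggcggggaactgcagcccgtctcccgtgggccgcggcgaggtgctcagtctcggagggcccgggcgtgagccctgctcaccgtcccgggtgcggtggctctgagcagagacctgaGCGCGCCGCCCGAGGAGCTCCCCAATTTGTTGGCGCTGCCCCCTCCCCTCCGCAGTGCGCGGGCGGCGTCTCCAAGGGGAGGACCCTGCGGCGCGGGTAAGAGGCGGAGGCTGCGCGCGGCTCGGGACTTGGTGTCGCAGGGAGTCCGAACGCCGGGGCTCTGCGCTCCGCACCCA
Col4a3, chr9:91323740-91324039, plus strand: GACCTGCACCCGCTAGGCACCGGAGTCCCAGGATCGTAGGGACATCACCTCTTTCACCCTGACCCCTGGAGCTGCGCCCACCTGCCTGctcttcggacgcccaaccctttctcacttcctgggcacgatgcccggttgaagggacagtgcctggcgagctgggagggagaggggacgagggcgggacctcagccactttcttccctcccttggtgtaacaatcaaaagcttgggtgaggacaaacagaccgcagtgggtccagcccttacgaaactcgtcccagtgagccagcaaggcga
Col4a4, chr9:91323528-91323827, minus strand: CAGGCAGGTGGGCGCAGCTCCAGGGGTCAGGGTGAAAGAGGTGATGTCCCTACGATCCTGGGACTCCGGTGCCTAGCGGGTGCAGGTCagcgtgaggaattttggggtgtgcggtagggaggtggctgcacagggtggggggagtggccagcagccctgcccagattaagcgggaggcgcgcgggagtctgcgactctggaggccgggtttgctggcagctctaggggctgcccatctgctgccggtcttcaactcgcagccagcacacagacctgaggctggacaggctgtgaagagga
All windows were searched on both strands for 3 short motifs. The letters CCAAT were present in 37.7% of all windows, once in the bases shared by Col4a1 and Col4a2 and in none of the bases shared by Col4a3 and Col4a4. The letters GGGCGG were present in 34.9% of all windows, at 2 places in the bases shared by the first pair and at 0 in those of the other pair. The letters TATAAA were present in 14.3% of all windows and in 0 of the 4 windows printed here.

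Each saline or cyclosporine A library held 30468799 to 34308987 fragments assigned to genes, and each library of the tacrolimus experiment 31670202 to 39358485. Mitochondrial genes took 10.5% to 15.9% of them in the tacrolimus table, 49.7% to 68.6% with saline vehicle and 80.2% to 90.8% with cyclosporine A. This left 10283990 to 17256836 nuclear fragments per saline library and 2905876 to 6549317 per cyclosporine A library. The deposited cyclosporine A values are relative to all fragments. They were therefore also rescaled with median-of-ratios size factors (rescaled FPKM), the scale the deposited tacrolimus values already have. FPKM is a level corrected for gene length and for sequencing depth. Replicate 4 of cyclosporine A had the fewest nuclear fragments and the highest level of 16 of the 24 members tested in its table, and without it the log2 difference changed sign for 8 of the 24 (Col3a1, Col4a1, Col4a6, Col5a2, Col6a2, Col8a2, Col12a1 and Col18a1). The labelled tissue had its tubular and glomerular markers: all 8 of the kidney markers on the list passed the filter in both tables. Of these, Slc12a3, the salt transporter of the distal convoluted tubule, was called lower with tacrolimus (43.3 ± 9.31 against 102 ± 5.50 FPKM, SD, n = 6; log2 difference -1.24, limma adjusted p = 0.000159). Umod, the uromodulin of the thick ascending limb, was called lower with cyclosporine A (125 ± 37.7 against 323 ± 99.7 rescaled FPKM, SD, n = 4; -1.36, limma adjusted p = 0.0491). The summed kidney markers were at 3582 to 4520 FPKM with tacrolimus and 4000 to 4486 with its vehicle, and at 311 to 515 rescaled FPKM with cyclosporine A and 506 to 795 with saline, with none at 0 in all samples of a group. Their part in the collagen values was not tested.

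Collagen genes gave 0.225% to 0.301% of the nuclear fragments with DMSO/PEG vehicle and 0.198% to 0.276% with tacrolimus. In the cyclosporine A table they gave 0.0769% to 0.108% with saline and 0.0859%, 0.0952% and 0.0898% in replicates 2, 3 and 1 of cyclosporine A, against 0.168% in replicate 4. The bulk of these fragments came from collagen IV, with 59.1% to 63.3% of the collagen fragments in DMSO/PEG vehicle and 55.0% to 58.1% in saline. Fibrillar genes made up 14.3% to 17.1% in DMSO/PEG vehicle and 8.52% to 11.2% in saline. Replicate 4 of cyclosporine A departed from the other samples of its table, with 19.7% fibrillar and 45.5% basement membrane fragments.

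**Figure D1:**
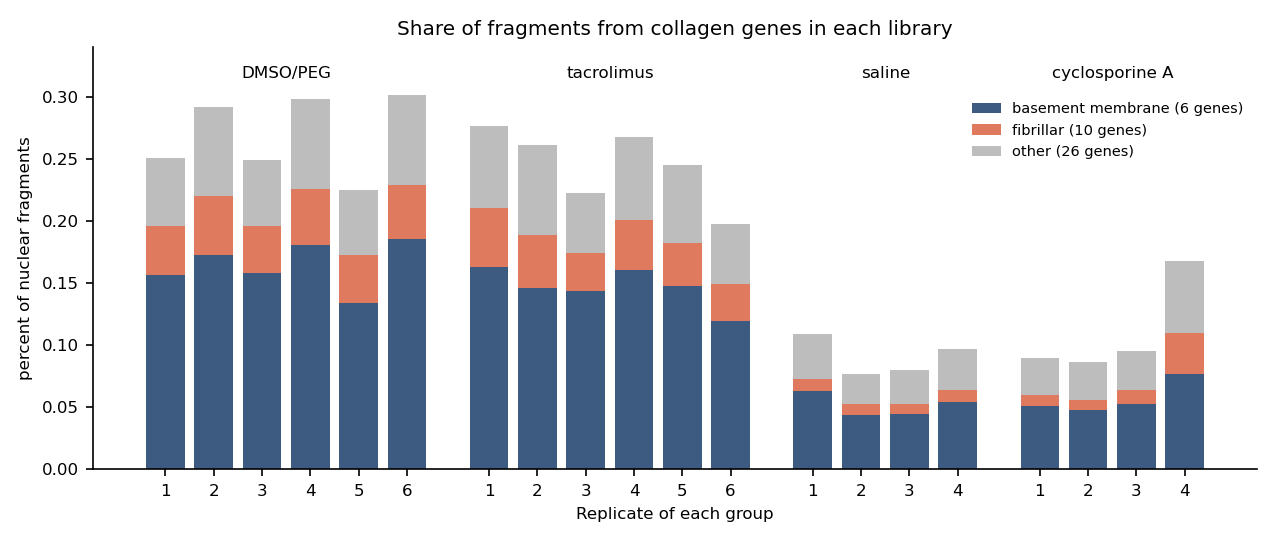
Percent of the nuclear fragments of each library that came from collagen genes, stacked by class, with 1 bar per sample and the samples grouped by treatment. Basement membrane genes form the largest block in all 20 libraries, and replicate 4 of cyclosporine A, at 0.168%, is the highest of the 8 libraries on the right.

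In DMSO/PEG vehicle kidneys, the highest levels belonged to Col4a4 (58.0 ± 4.27 FPKM, SD, n = 6), Col4a1 (52.9 ± 6.43), Col18a1 (51.2 ± 6.07) and Col4a2 (44.0 ± 5.39). Col18a1 encodes the basement membrane collagen XVIII, whose end fragment is endostatin. Neighbours among the first 3 in this order differed by less than the larger of their SDs. Col18a1 exceeded Col4a2 in 6 of 6 samples, and Col4a2 exceeded the fibrillar Col3a1 (34.6 ± 3.31 FPKM) in 6 of 6. Then came Col4a5 (18.5 ± 1.29), Col4a3 (17.1 ± 3.598) and Col1a1 (15.4 ± 1.97), in which neighbours again differed by less than the larger of their SDs. Col6a2 (12.6 ± 1.68), Col6a1 (11.8 ± 1.76) and Col12a1 (11.3 ± 2.68) followed, again with no gap larger than the spread among them. Collagen VI forms beaded microfibrils near cells and Col12a1 encodes a collagen that sits on fibrils.

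A lower tier held Col5a2 (7.88 ± 1.38 FPKM), Col5a1 (4.80 ± 0.869), Col8a2 (4.45 ± 0.602) and Col27a1 (4.36 ± 1.44). Below it lay Col6a6, Col17a1, Col16a1, Col14a1, Col11a1, Col9a1 and Col13a1, between 1.12 and 2.38 FPKM. These 22 genes had a mean of at least 1 FPKM over the 12 libraries of the tacrolimus table, while the other 20 members had means from 0.0112 to 0.731 FPKM. Col4a6, the partner of Col4a5, was among the latter at 0.669 ± 0.143 FPKM in vehicle. In fragments, not corrected for length, each DMSO/PEG sample held 4.60 to 7.45 of Col4a4 for each of Col4a3.

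**Figure D2:**
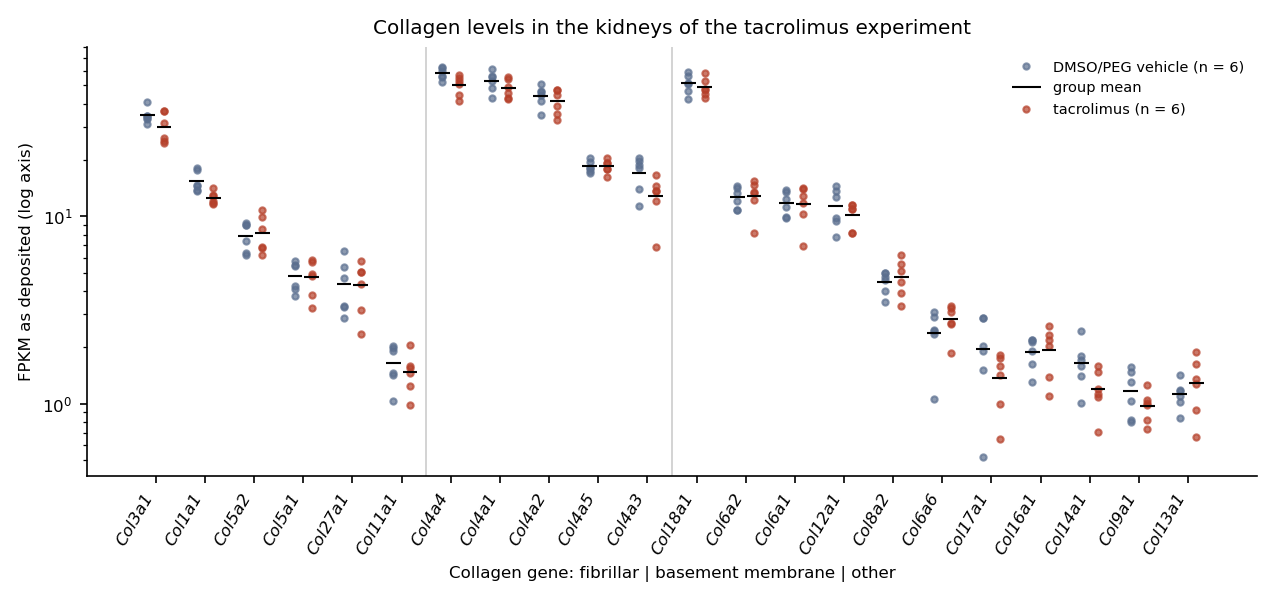
FPKM as deposited (log axis) of the 22 collagen genes with a mean of at least 1 FPKM in the tacrolimus experiment, with 1 point per sample and a bar at each group mean (n = 6 a group). Col4a4, Col4a1, Col18a1 and Col4a2 lie highest, and the points of both groups overlap for each gene.

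The first comparison asked whether collagen genes differ between tacrolimus and its vehicle. With tacrolimus, Col1a1, Col3a1, Col4a3 and Col4a4 had lower means than in vehicle, and none of these differences passed the test. Of the 38 members tested, 0 were called at an adjusted p under 0.05 (limma on log2(FPKM + 1), Benjamini-Hochberg over 15493 genes), against 0.303% of all genes tested (0.284% lower and 0.0194% higher). At an unadjusted p under 0.05 there were 4 (Col1a1, Col4a4, Col20a1 and Col24a1), against 8.58% of all genes (4.87% lower and 3.7% higher), and voom on the recovered fragments also called 0, with 5 at an unadjusted p under 0.05. The groups overlapped for all 38 members, where 0.975% of all genes had groups that did not overlap. The median log2 difference of the tested members was -0.026, with 23 of 38 below 0 beside 50.2% of all genes, and that of all genes was -0.00033; without tacrolimus replicate 6 the median of the members was 0.020. The remaining 4 members had at most 15 fragments in any library and were not tested.

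Col1a1 (chr10:82745801-82762789) encodes the main chain of collagen I, the chief fibre of scar tissue. Its level was 11.6, 12.4 and 14.2 FPKM (lowest, median and highest of 6) with tacrolimus and 13.6, 14.7 and 18.1 FPKM with vehicle. The tacrolimus samples lay toward the lower end and the highest of them overlapped the lowest vehicle samples. The difference was -0.27 ± 0.079 (SE) on the log2 scale, with an unadjusted p of 0.00496 and a limma adjusted p of 0.259. Without each sample in turn it ran from -0.30 to -0.22. Col1a2, which encodes the other chain of collagen I, was at 7.16, 12.9 and 16.4 FPKM with tacrolimus and 9.61, 13.0 and 16.3 FPKM with vehicle, and 2 tacrolimus samples lay below all vehicle samples while the upper ends were alike (log2 difference -0.11, limma adjusted p = 0.940).

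Col3a1 (chr9:52023295-52059217) encodes collagen III, the fine fibre laid down beside collagen I. Its level was 24.8, 28.9 and 36.6 FPKM with tacrolimus and 31.1, 33.97 and 40.9 FPKM with vehicle. Of the tacrolimus samples, 2 lay above all vehicle samples but the highest, 3 lay below them all, and the groups overlapped (log2 difference -0.21 ± 0.11 SE, limma adjusted p = 0.640). Col24a1, a minor fibrillar chain, was near the limit of detection, with 7 to 39 fragments per tacrolimus library and 6 to 19 per vehicle library. It was at 0.0517, 0.195 and 0.242 FPKM with tacrolimus and 0.0438, 0.0650 and 0.132 FPKM with vehicle, a log2 difference of 0.12 (limma adjusted p = 0.435). Among the 10 fibrillar genes, 7 differences were below 0 and 3 above, with a median of -0.023 and a span from -0.28 to 0.12.

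Of the 8 fibroblast markers, 0 were called, 6 differences were below 0, and their summed level was 121 to 195 FPKM with tacrolimus and 156 to 212 FPKM with vehicle, none of them at 0 in all samples of a group. At an unadjusted p under 0.05, limma gave 2 of the 8 lower (Lum and Pi16), beside 4.87% of all genes, and voom gave 4 lower. In whole kidney, fewer cells of a type and less RNA per cell cannot be told apart. Of the 7 adipocyte markers, all differences were below 0 and 5 had an unadjusted p under 0.05 (limma). Among them Ucp1, the uncoupling protein of brown fat, was called lower by limma (log2 difference -3.33, adjusted p = 0.000844) and not by voom, where the difference was larger (-6.84, adjusted p = 0.0514). The summed level of the adipocyte markers was 50.004 to 155 FPKM with tacrolimus and 87.4 to 281 FPKM with vehicle. The part of these cell types in the collagen values was not tested.

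Among the basement membrane chains, 5 of 6 differences were below 0, with a median of -0.12. Col4a3 was at 6.89, 13.6 and 16.7 FPKM with tacrolimus and 11.4, 18.4 and 20.6 FPKM with vehicle. The lowest value by a wide margin belonged to a tacrolimus sample, and the others overlapped (log2 difference -0.40 ± 0.19 SE, limma adjusted p = 0.591). Without tacrolimus replicate 6 the difference was -0.24. Col4a4, its head-to-head partner, was at 41.1, 52.0 and 57.1 FPKM with tacrolimus and 52.0, 57.7 and 63.1 FPKM with vehicle. The upper tacrolimus samples lay within the vehicle range and the lower ones below it (log2 difference -0.21 ± 0.081 SE, limma adjusted p = 0.450).

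Col4a5, which joins those chains in the glomerular filter, had nearly the same median in both groups, at 16.1, 18.6 and 20.6 FPKM with tacrolimus and 16.96, 18.2 and 20.4 FPKM with vehicle. Its log2 difference was 0.0018 with a 95% interval from -0.14 to 0.14. Podocyte markers gave 0 calls among 7, with 5 below 0 and summed levels of 93.8 to 115 FPKM with tacrolimus and 100 to 126 FPKM with vehicle; their part in the values of Col4a3 and Col4a4 was not tested. Col4a1 was at 42.2, 47.3 and 55.5 FPKM with tacrolimus and 43.0, 54.2 and 61.6 FPKM with vehicle. Col4a2 was at 32.9, 41.6 and 47.6 FPKM with tacrolimus and 34.9, 45.4 and 50.7 FPKM with vehicle. Both overlapped widely, with log2 differences of -0.13 (95% interval -0.33 to 0.067) and -0.10 (-0.33 to 0.13).

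The other members included both multiplexins, collagens of vessel and epithelial basement membrane zones. Col18a1 (chr20:12225202-12332858) was at 42.7, 47.5 and 58.3 FPKM with tacrolimus and 42.6, 51.4 and 59.0 FPKM with vehicle, a difference of -0.061 on the log2 scale (95% interval -0.25 to 0.13). Col15a1, its relative, was at 0.410, 0.638 and 1.15 FPKM with tacrolimus and 0.566, 0.755 and 0.883 FPKM with vehicle. Neither pair of groups was set apart.

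Of the beaded filament chains, Col6a1 was at 6.91, 12.3 and 14.3 FPKM with tacrolimus and 9.76, 11.8 and 13.8 FPKM with vehicle. Col6a3 was at 4.55, 7.42 and 8.90 FPKM with tacrolimus and 5.14, 6.04 and 7.92 FPKM with vehicle. For both, the tacrolimus samples spread to either side of the vehicle samples (log2 differences -0.034 and 0.10). Over the 22 other members tested, 11 differences were above 0 and 11 below, from -0.27 to 0.19. Col20a1, a minor fibril-associated chain, was the one with an unadjusted p under 0.05 among them (log2 difference 0.12, limma adjusted p = 0.470), at 0.201 ± 0.0618 FPKM with tacrolimus and 0.108 ± 0.0529 FPKM with vehicle (SD, n = 6). It too was near the limit of detection, with 18 to 47 fragments per tacrolimus library and 6 to 31 per vehicle library.

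**Figure D3:**
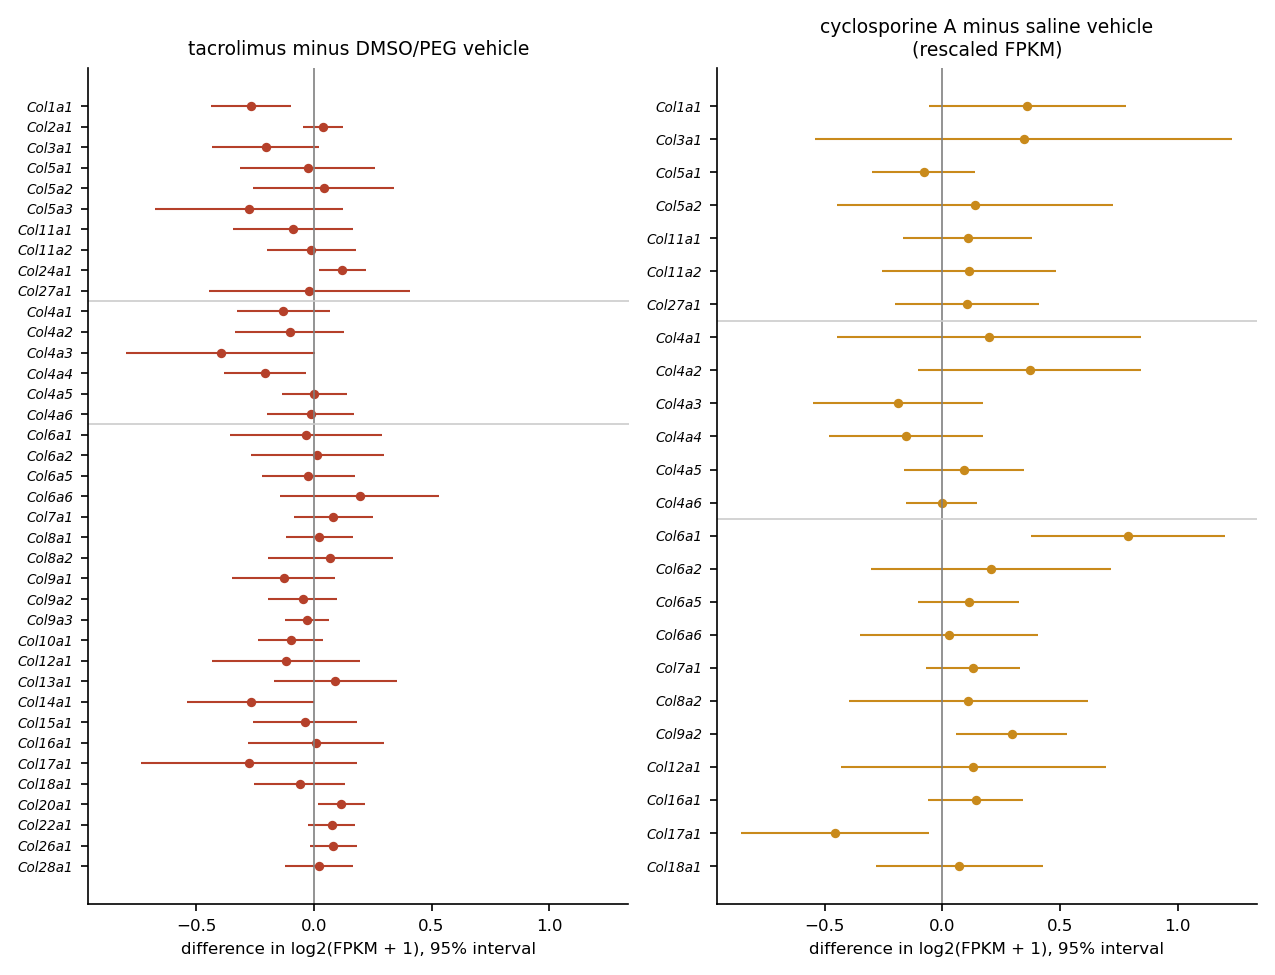
Differences in log2(FPKM + 1) between drug and vehicle with 95% intervals for the 38 members tested with tacrolimus (left) and the 24 tested with cyclosporine A on rescaled FPKM (right); grey lines part the fibrillar, basement membrane and other genes. Col1a1 and Col4a4 lie below 0 on the left, and Col6a1 at 0.79 is the largest on the right; 0 genes were called in either comparison.

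With cyclosporine A, the means of Col6a1 and Col9a2 were higher and that of Col17a1 lower than with saline on rescaled FPKM, none of them past the adjusted threshold. On the deposited scale the picture was another: 10 collagen genes were called, all lower. Of the 24 members tested, 0 were called on rescaled FPKM (limma on log2(rescaled FPKM + 1), Benjamini-Hochberg over 13455 genes), against 0.609% of all genes (0.282% lower and 0.327% higher). At an unadjusted p under 0.05 there were 2 higher and 1 lower, against 16.2% of all genes (7.29% higher and 8.92% lower); voom also called 0, with 3 at an unadjusted p under 0.05. Groups did not overlap for 2 members, against 10.9% of all genes. The median log2 difference of the tested members was 0.11, with 5 of 24 below 0 beside 50.1% of all genes; that of all genes was -0.00027, and without replicate 4 of cyclosporine A the median of the members was 0.014.

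On FPKM as deposited, 10 of 24 members were called lower, where 81.1% of all genes were called and 80.9% were called lower. The median log2 difference of the members was -0.34 and that of all genes -0.89 on that scale. The share called among collagen genes was thus below the share among all genes, and 13124 of the 13455 genes tested had a difference below 0. It differed by class, with 5 of 6 basement membrane genes called (median -0.88), 3 of 7 fibrillar (-0.29) and 2 of 11 others (-0.25). Differences of low genes are understated on log2(FPKM + 1), and only 8 members had a mean of at least 1 rescaled FPKM in this table. The pooled share was not corrected for level. Groups did not overlap there for 6 of the 24, against 68% of all genes. The other 18 members had at most 28 fragments in any library of this table and were not tested.

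Col6a1 (chr20:12658065-12675561) encodes a chain of collagen VI, which links cells to the surrounding matrix. Its rescaled FPKM was 1.54, 1.25, 0.612 and 2.09 in replicates 1 to 4 of cyclosporine A and 0.433, 0.199, 0.309 and 0.423 in replicates 1 to 4 of saline. All cyclosporine A samples lay above all saline samples. The log2 difference was 0.79 ± 0.19 (SE), with an unadjusted p of 0.00172 and a limma adjusted p of 0.0866. Without replicate 4 of cyclosporine A it was 0.65 (limma adjusted p = 0.0976). It rested on 28 to 66 fragments per cyclosporine A library and 16 to 58 per saline library. As deposited, the values were 0.965, 1.03, 0.457 and 0.895 FPKM with cyclosporine A and 0.872, 0.252, 0.473 and 0.728 FPKM with saline, and the groups overlapped (log2 difference 0.22).

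Its partner Col6a2 showed no such separation, at 0.804 ± 0.621 rescaled FPKM with cyclosporine A and 0.529 ± 0.308 with saline (SD, n = 4), a log2 difference of 0.21 (95% interval -0.30 to 0.71) that was -0.0096 without replicate 4. Col6a3, the large chain of the same trimer, was at 0.327, 0.265, 0.241 and 0.748 rescaled FPKM with cyclosporine A and 0.305, 0.404, 0.518 and 0.501 with saline. Replicate 4 was above all saline samples and 2 of the others were below them. As deposited, Col6a3 was called lower and its groups did not overlap (log2 difference -0.46, limma adjusted p = 0.00305).

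Col9a2, a chain of the cartilage collagen IX, was at 0.585, 0.310, 0.444 and 0.648 rescaled FPKM with cyclosporine A and 0.303, 0.0898, 0.189 and 0.291 with saline. The groups did not overlap, by a narrow margin (log2 difference 0.30 ± 0.11 SE, limma adjusted p = 0.209). Without replicate 4 the difference was 0.25, and as deposited -0.062. Col17a1 encodes the transmembrane collagen that anchors epithelial cells to their basement membrane. It was at 0.153, 0.147, 0.224 and 0.738 rescaled FPKM with cyclosporine A and 0.337, 0.813, 0.922 and 1.14 with saline. Replicate 4 stood among the saline samples and the other cyclosporine A samples lay below them all (log2 difference -0.46 ± 0.18 SE, limma adjusted p = 0.250). Without replicate 4 it was -0.60 (limma adjusted p = 0.106).

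As deposited, Col17a1 was at 0.0957, 0.121, 0.167 and 0.316 FPKM with cyclosporine A and 0.680, 1.03, 1.41 and 1.96 FPKM with saline, with no overlap, and it was called lower (log2 difference -0.92, limma adjusted p = 0.000563). Urothelial markers label an epithelium that also rests on such anchors. Of the 7 listed, 4 were tested, and all 4 had higher means with cyclosporine A on rescaled FPKM. All 4 had an unadjusted p under 0.05 (limma), beside 7.29% of all genes higher. Upk1a was called (log2 difference 1.51, limma adjusted p = 0.0197), beside 0.327% of all genes called higher. Upk1b, Upk3a and Krt5 were not called (limma adjusted p = 0.0951, 0.123 and 0.189). As deposited, 0 of the 4 had an unadjusted p under 0.05 and Upk1a was not called (log2 difference 0.57, limma adjusted p = 0.0704). The summed level of the urothelial markers was 7.56 to 17.7 rescaled FPKM with cyclosporine A and 1.61 to 4.26 with saline, with Krt20 at 0 in all cyclosporine A samples. Their part in the collagen values was not tested.

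Fibrillar chains were low in this table. Col1a1 was at 0.405, 0.333, 0.690 and 1.55 rescaled FPKM with cyclosporine A and 0.345, 0.224, 0.365 and 0.321 with saline, from 45 to 139 fragments per library. Replicate 4 lay far above, replicate 3 above and the others within or close to the saline range (log2 difference 0.36 ± 0.19 SE, limma adjusted p = 0.381). Without replicate 4 it was 0.16, and as deposited -0.096. Col1a2 was at 0.391, 0.307, 0.355 and 1.49 rescaled FPKM with cyclosporine A and 0.108, 0.185, 0.514 and 0.316 with saline, with the same sample highest.

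Col3a1 was at 1.00, 1.15, 1.501 and 7.28 rescaled FPKM with cyclosporine A and 1.46, 1.00, 1.72 and 1.55 with saline. A single sample held the whole of the higher mean, and without it the log2 difference turned from 0.35 to -0.13. As deposited the difference was -0.53 (limma adjusted p = 0.0824). Of the 7 fibrillar genes tested, 6 differences were above 0 on rescaled FPKM, and 6 of these genes were highest in replicate 4. In that sample the fibroblast markers summed to 54.4 rescaled FPKM, against 11.9 to 14.02 in the other cyclosporine A samples and 12.7 to 31.7 in saline. The leukocyte markers summed to 11.5, against 1.68 to 2.97 and 2.85 to 4.61; none of these markers was at 0 in all samples of a group, and their part in the collagen values was not tested.

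The deposited scale called Col5a1, Col5a2 and Col27a1 lower among the fibrillar genes. Collagen V starts fibrils. Col5a1 was at 0.0399, 0.00525, 0.0934 and 0.121 FPKM as deposited with cyclosporine A and 0.517, 0.101, 0.192 and 0.445 with saline. Col5a2 was at 0.315, 0.378, 0.247 and 0.986 FPKM as deposited with cyclosporine A and 1.28, 0.913, 1.14 and 0.579 with saline. Both overlapped. Col27a1, at 0.884, 0.907, 0.8294 and 0.623 FPKM as deposited with cyclosporine A and 2.33, 1.63, 1.10 and 2.25 with saline, did not overlap. On rescaled FPKM the log2 differences of Col5a1, Col5a2 and Col27a1 were -0.079, 0.14 and 0.11, with limma adjusted p values of 0.745, 0.847 and 0.761. Without replicate 4 of cyclosporine A they were -0.15, -0.16 and 0.066.

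The chains of the glomerular filter had overlapping groups on rescaled FPKM. Col4a3 was at 2.63, 1.94, 2.18 and 2.43 with cyclosporine A and 3.70, 2.54, 1.96 and 2.97 with saline. Col4a4 was at 12.1, 11.9, 15.9 and 11.9 with cyclosporine A and 17.4, 12.1, 12.7 and 16.2 with saline. Col4a5 was at 3.15, 2.82, 2.78 and 2.87 with cyclosporine A and 2.93, 2.62, 2.68 and 2.44 with saline. None stood apart, and the log2 differences were -0.19 (95% interval -0.55 to 0.17), -0.15 (-0.48 to 0.17) and 0.092 (-0.16 to 0.35). Podocyte markers gave 0 calls among 7, with 6 differences above 0 and summed levels of 6.20 to 7.23 rescaled FPKM in replicates 1 to 3 of cyclosporine A, 13.7 in replicate 4 and 4.24 to 6.85 with saline; their part in these values was not tested.

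As deposited, the same chains were called lower. Col4a3 was at 1.65, 1.60, 1.63 and 1.04 FPKM as deposited with cyclosporine A and 7.46, 3.22, 3.00 and 5.11 with saline (log2 difference -1.14). Col4a4 was at 7.58, 9.86, 11.9 and 5.11 FPKM as deposited with cyclosporine A and 35.2, 15.3, 19.5 and 27.9 with saline (-1.39). Col4a5 was at 1.98, 2.33, 2.07 and 1.23 FPKM as deposited with cyclosporine A and 5.90, 3.32, 4.11 and 4.19 with saline (-0.88). None of these groups overlapped, and the limma adjusted p values were 0.00122, 0.00114 and 0.00325.

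The widespread chains of collagen IV depended on the same sample and scale. Col4a1 was at 2.64, 3.45, 3.71 and 9.13 rescaled FPKM with cyclosporine A and 4.78, 3.08, 2.99 and 3.74 with saline. Col4a2 was at 3.13, 3.07, 2.07 and 4.77 rescaled FPKM with cyclosporine A and 3.32, 1.79, 1.88 and 2.08 with saline. Replicate 4 was the highest sample for both, and both overlapped (log2 differences 0.20 ± 0.29 and 0.37 ± 0.21, SE; limma adjusted p = 0.791 and 0.430). Without replicate 4 they were -0.12 for Col4a1 and 0.21 for Col4a2. As deposited, Col4a1 was at 1.65, 2.85, 2.77 and 3.91 FPKM with cyclosporine A and 9.65, 3.90, 4.58 and 6.44 FPKM with saline. Col4a2 was at 1.96, 2.54, 1.55 and 2.04 FPKM as deposited with cyclosporine A and 6.69, 2.26, 2.89 and 3.58 with saline. Both were called lower on that scale, with log2 differences of -0.88 and -0.61.

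Col18a1 was at 10.7, 10.4, 10.6 and 14.8 rescaled FPKM with cyclosporine A and 13.8, 9.08, 9.54 and 11.7 with saline. The first 3 cyclosporine A samples were nearly equal and lay within the saline range (log2 difference 0.072, 95% interval -0.28 to 0.43; -0.040 without replicate 4). As deposited it was at 6.71, 8.63, 7.90 and 6.35 FPKM with cyclosporine A and 27.9, 11.5, 14.6 and 20.2 FPKM with saline, which did not overlap (-1.15, limma adjusted p = 0.00197). Col15a1 was not tested, at 0.0303, 0.0775, 0 and 0.0425 rescaled FPKM with cyclosporine A and 0.0779, 0, 0.0159 and 0.0331 with saline. In all, 8 members had a mean of at least 1 rescaled FPKM over the 8 libraries. The fragments of 9 members came out whole only with a shorter gene length than the one listed, so levels of different genes in this table depend on that length.

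**Figure D4:**
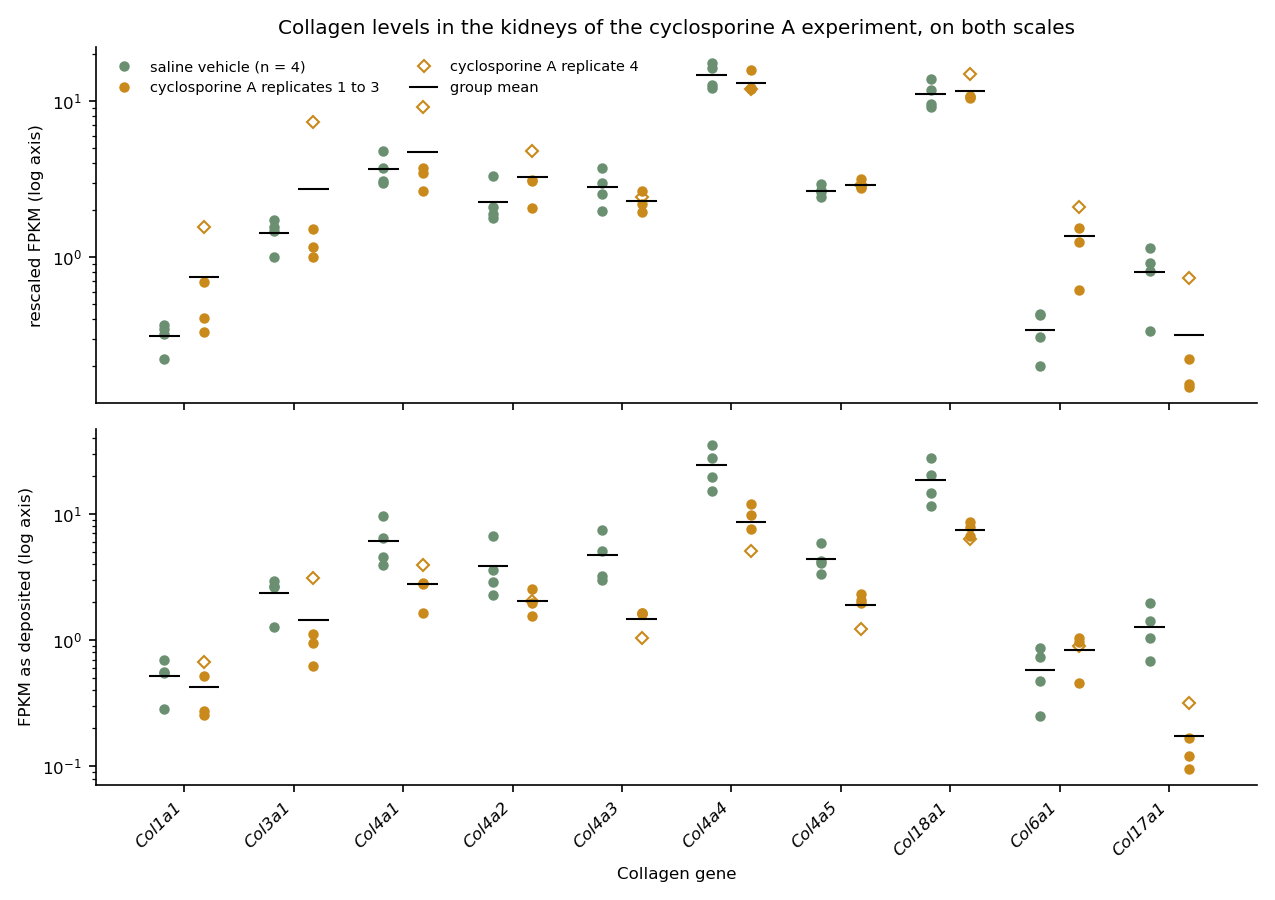
Levels of 10 collagen genes in the 8 samples of the cyclosporine A experiment, as rescaled FPKM (top) and as deposited (bottom), both on log axes, with 1 point per sample, bars at group means and an open diamond for replicate 4 of cyclosporine A. The groups overlap for Col4a4 and Col18a1 at the top and are apart at the bottom, and replicate 4 is highest for Col1a1, Col3a1 and Col4a1 at the top.

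The difference with cyclosporine A was then set against the change with tacrolimus. Col6a1, Col1a1 and Col9a2 had the smallest p-values for a difference between the drugs, and none passed the adjusted threshold. Of the 24 members tested in both tables, 0 were called on the difference of the 2 log2 fold changes (limma standard errors, Benjamini-Hochberg over 13392 genes), against 1.61% of all genes, and 3 had an unadjusted p under 0.05, against 16% of all genes. For Col6a1 the difference was 0.82 (95% interval 0.32 to 1.32), from 0.79 with cyclosporine A and -0.034 with tacrolimus (adjusted p = 0.0817). Without replicate 3 of cyclosporine A, the sample of its group with the lowest Col6a1, it was 0.99 and was called, with an adjusted p of 0.0233. This was the only run with a sample left out that called a collagen gene. For Col1a1 the difference was 0.63 (95% interval 0.19 to 1.07, adjusted p = 0.143), and for Col9a2 0.34 (0.079 to 0.61, adjusted p = 0.182). The chains of the glomerular filter differed by 0.21 for Col4a3, 0.054 for Col4a4 and 0.090 for Col4a5, with intervals that spanned 0 (-0.30 to 0.72, -0.30 to 0.41 and -0.19 to 0.37). With the deposited cyclosporine A scale, 7 of 24 members were called for this difference, against 75.2% of all genes. Drug, vehicle and table cannot be told apart in it. For genes at lower levels in the cyclosporine A table, the added 1 also shrank the change there more than the change with tacrolimus. Col1a1, for example, was at 0.333 to 1.55 rescaled FPKM with cyclosporine A and 11.6 to 14.2 FPKM with tacrolimus. The 2 changes of such genes are not on a like scale.

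Partner chains were compared over the 12 samples of the tacrolimus experiment, for 6 pairs: 5 of chains that share a trimer or neighbouring start sites, and Col1a1 with Col3a1, whose chains form different trimers. No background of other gene pairs was taken, so a trait of partner chains cannot be told from variation shared by many genes. In vehicle, Col18a1 on chromosome 20 was also lowest in replicate 5 (42.6 FPKM) and highest in replicate 6 (59.0 FPKM), as were Col4a1 and Col4a2. Col6a1 and Col6a2, whose chains join in collagen VI, had the closest levels, with Pearson's r = 0.972 (permutation p = 1e-05, the smallest the 100000 resamples can give; adjusted over the pairs 6e-05) and Spearman's rho = 0.944 (permutation p = 2e-05). Without the samples farthest from the median, r was 0.915. Col4a1 and Col4a2, the pair whose windows share 176 bases, had r = 0.915 (permutation p = 6e-05, adjusted 0.0002) and rho = 0.888 (permutation p = 0.0002), and r = 0.884 without the farthest samples. Within the groups, r was 0.863 with tacrolimus (exact permutation p = 0.05, n = 6, not under the threshold) and 0.989 with vehicle (exact permutation p = 0.00278, n = 6).

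Col4a3 and Col4a4, whose windows share 88 bases, had r = 0.741 (permutation p = 0.0063, adjusted 0.0126) and rho = 0.790 (permutation p = 0.0034), and r = 0.602 without the farthest samples. Within the groups r was 0.658 with tacrolimus and 0.581 with vehicle, neither past the threshold in an exact permutation test (p = 0.147 and 0.236, n = 6). Col4a5 and Col4a6, whose windows share no base, had r = 0.578 (permutation p = 0.0505, adjusted 0.0757) and rho = 0.448 (permutation p = 0.148), and r = 0.690 without the farthest samples. Col1a1 and Col3a1, the main fibre chains, had r = 0.379 (permutation p = 0.225, adjusted 0.270) and rho = 0.336 (permutation p = 0.290). Without the farthest samples r was 0.677, and within the groups it was 0.454 with tacrolimus and -0.446 with vehicle, so the value depended on which samples entered.

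Col1a1 and Col1a2, whose chains make up collagen I together, showed no correlation past the threshold: r = -0.121 (permutation p = 0.714, adjusted 0.714) and rho = -0.0909 (permutation p = 0.783). Without the farthest samples the sign turned, to r = 0.318. Within vehicle samples alone r was -0.828 (exact permutation test, 2-sided p = 0.0528, n = 6), and within tacrolimus samples 0.0951 (exact permutation p = 0.869, n = 6). The ratio of Col1a1 to Col1a2 fragments ran from 1.08 to 2.45 in vehicle and from 0.932 to 2.33 with tacrolimus. By contrast, the ratio of Col4a1 to Col4a2 fragments stayed between 1.56 and 1.64 in the 6 vehicle samples and between 1.47 and 1.84 with tacrolimus.

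**Figure D5:**
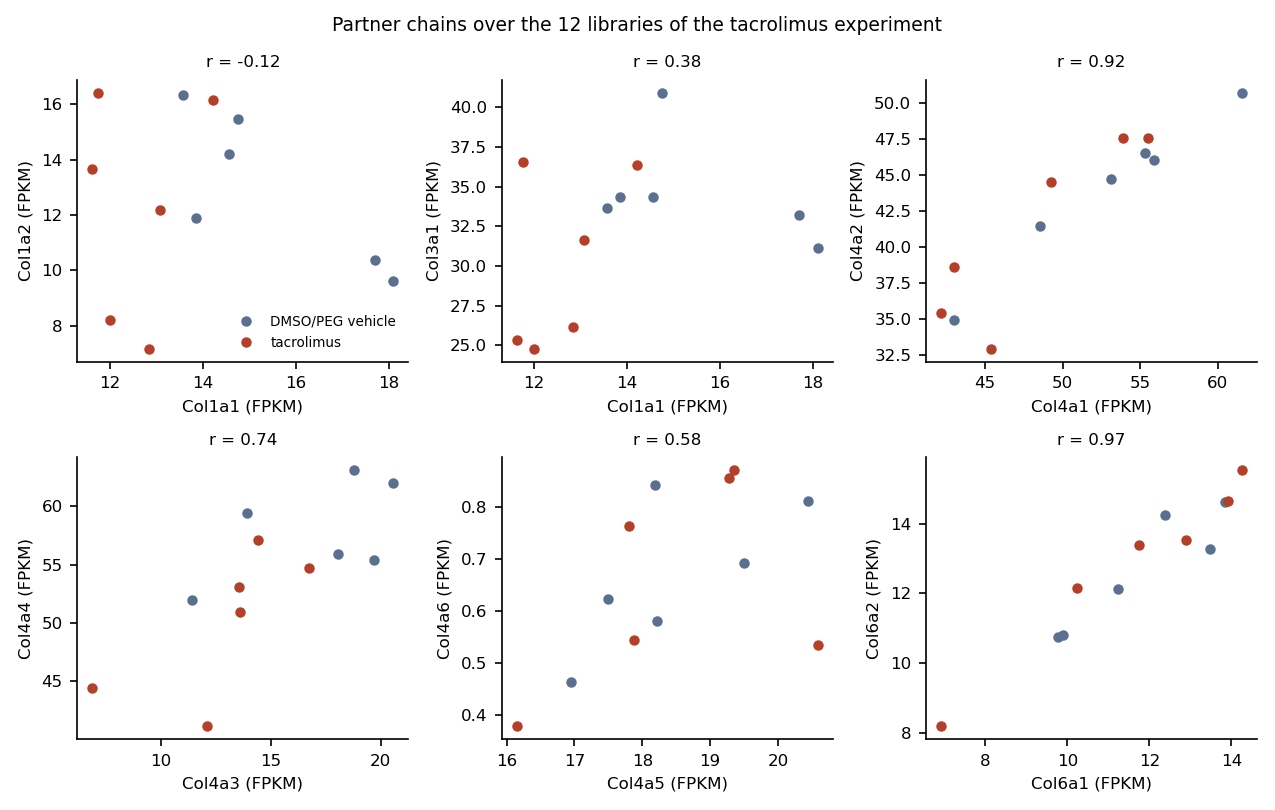
FPKM of 6 pairs of partner chains in the 12 samples of the tacrolimus experiment, with 1 point per sample coloured by group and Pearson's r above each panel. Col6a1 with Col6a2 and Col4a1 with Col4a2 lie close to a line, while Col1a1 with Col1a2 do not (r = -0.121).

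The genes that process, bind and remove collagens were taken from 4 lists. Of 28 biosynthesis genes tested with tacrolimus (chain hydroxylases, chaperones, processing enzymes and crosslinkers), 1 was called: Colgalt2, which adds galactose to hydroxylysine of collagen chains, fell from 3.31 ± 0.671 to 1.77 ± 0.271 FPKM (SD, n = 6), a log2 difference of -0.63 ± 0.10 (SE, limma adjusted p = 0.0169). Its groups did not overlap, at 1.43 to 2.19 FPKM with tacrolimus and 2.57 to 4.45 FPKM with vehicle. Of 14 turnover and receptor genes, 16 basement membrane partners and 12 fibril-associated matrix genes tested with tacrolimus, 0 were called in each list. At an unadjusted p under 0.05 there were 3 of 28, 1 of 14, 2 of 16 and 4 of 12 genes, the last all lower, beside 8.58% of all genes (4.87% lower). The medians of the 4 lists were -0.0053, 0.0073, -0.022 and -0.077.

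With cyclosporine A on rescaled FPKM, 0 genes of any of these lists were called, of 26, 11, 16 and 9 tested, with 3, 0, 2 and 0 at an unadjusted p under 0.05 beside 16.2% of all genes. The medians were -0.029, 0.042, 0.014 and 0.089. By voom 0 genes were called and the medians were -0.22, -0.017, -0.12 and -0.0023, so the sign turned for all lists but the first. As deposited, 18 of 26, 8 of 11, 12 of 16 and 5 of 9 were called lower, beside 80.9% of all genes.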

How the data were processed

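Whole-kidney RNA was sequenced in 20 samples. The authors deposited 2 gene tables of FPKM, 1 per drug; the build was rn6 and the aligner HISAT2, per the submitters' processing notes, and the counter, strand setting and annotation are not given in the sources used here. The deposited gene lengths, an annotation column in bases, served to recover whole fragments: within a tolerance of 0.001, 100% of values came out whole with the listed length in the tacrolimus table and 74.1% in the cyclosporine A table, where 4445 genes needed a shorter length. The deposited tacrolimus values proved to be scaled by median-of-ratios; the cyclosporine A values were relative to all fragments, mitochondrial ones included, and were rescaled the same way.

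Genes needed 10 fragments at the median library depth in as many libraries as the smaller group has, and 15 in all. limma 3.58.1 (R 4.3.3; linear model, moderated with a mean trend) was fitted within each table on log2(FPKM + 1), so differences of low genes are understated. The difference between the drugs combined both fits. Genes were called at a Benjamini-Hochberg adjusted p under 0.05 over all genes tested, and intervals are 95%. The scripts were tested on simulated data. Python 3.11.15 with scipy 1.17.1 ran the permutation tests. Alternatives were a pseudocount of 0.1, no filter, voom, other scalings, a replicate block and leaving out each sample.

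The collagen genes with a mean of at least 1 FPKM in the tacrolimus table, those called on any scale and the 3 with the smallest p in each comparison are named; Col6a2, Col20a1 and a few others are given as partners or counts of 5 or fewer. The members and the lists were chosen with earlier results of these data known.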

Additional observations from a re-analysis of the deposited data

Results flagged for a closer look

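In 64 groups of samples, a value far from the rest of its group was looked for with Dixon's ratio, which chance passes in about 1 in 20 groups. It was passed 9 times, 7 of them by replicate 4 of cyclosporine A. In rescaled FPKM that sample stood at 7.28 for Col3a1 (the other cyclosporine A samples 1.00 to 1.501), 9.13 for Col4a1 (2.64 to 3.71), 14.8 for Col18a1 (10.4 to 10.7), 1.49 for Col1a2 (0.307 to 0.391), 0.748 for Col6a3 (0.241 to 0.327) and 0.738 for Col17a1 (0.147 to 0.224). Collagen genes took 0.168% of its nuclear fragments, against 0.0859% to 0.0952% in the others.

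Replicate 3 of cyclosporine A was high for Col4a4, at 15.9 rescaled FPKM against 11.9 to 12.1. In DMSO/PEG vehicle, replicate 2 was high for Col3a1, at 40.9 FPKM against 31.1 to 34.3. In the same sample the leukocyte markers summed to 57.5 FPKM, against 21.4 to 24.0 in the others of its group, and the fibroblast, smooth muscle and endothelial sums were the highest of the group (212, 130 and 130 FPKM). Their part in the Col3a1 value was not tested.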

How the results depend on the processing

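The count of called collagen genes was 0 for tacrolimus under every alternative run, and 0 for cyclosporine A under all but the deposited scale, where it was 10; leaving out each sample gave 0 throughout. For the difference between drugs it was 7 with the deposited scale and 0 to 1 when samples were left out. Over all genes, cyclosporine A calls numbered 82, 1 with no filter, 269 with voom, 10911 as deposited and 1 to 139 with a sample left out; tacrolimus calls numbered 47, and 36 to 49 with a sample left out.

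As deposited, the sign turned from above to below 0 for 17 of the 24 members tested. Among the genes given by sample these were Col1a1 (-0.096), Col1a2 (-0.089), Col3a1 (-0.53), Col4a1 (-0.88), Col4a2 (-0.61), Col4a5 (-0.88), Col5a2 (-0.43), Col27a1 (-0.62), Col18a1 (-1.15) and Col9a2 (-0.062), with Col1a2 outside the member count, and the median of the members was -0.34; that scale includes mitochondrial fragments. Scaled to all fragments, Col4a5 with tacrolimus was -0.0034. With samples left out, log2 differences crossed 0 for 13 of 38 members with tacrolimus and 10 of 24 with cyclosporine A. Among the genes given by sample these were, with tacrolimus, Col4a5 (-0.028 to 0.038), Col6a1 (-0.094 to 0.095), Col15a1 (-0.11 to 0.016) and, outside the member count, Col1a2 (-0.20 to 0.023). With cyclosporine A they were Col5a2 (-0.16 to 0.27), Col3a1 (-0.13 to 0.55), Col4a1 (-0.12 to 0.38), Col18a1 (-0.040 to 0.18) and, outside the member count, Col6a3 (-0.16 to 0.0026). The cause was not tested.

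Same-numbered samples did not deviate together (correlations -0.150 to 0.212 for cyclosporine A and -0.151 to 0.182 for tacrolimus; a sample correlated best with its own number for 1 of 4 and 2 of 6 numbers). With a replicate block, 0 collagen genes were called in either comparison, and over all genes 6 with cyclosporine A and 44 with tacrolimus. The 2905876 nuclear fragments of the shallowest cyclosporine A library limit what is detectable for low collagen genes.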

Other observations

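Collagen levels were set side by side in the vehicles of the 2 experiments. The tables were normalized separately and vehicle and table cannot be told apart, so these are fragments scaled to 1000000 nuclear fragments, given with no test and only for members tested in both tables with the same gene length in both. Col1a1 was at 5.25 to 8.70 in saline and 91.4 to 116 in DMSO/PEG vehicle, a ratio of means of 13.8. Over the 9385 genes that meet the same conditions, the median ratio was 1.02 and the quartiles were 0.745 and 1.45. Among the 5 fibrillar genes the ratio ran from 1.11 (Col27a1) to 13.8, with a median of 3.66. Among the 5 basement membrane genes it ran from 1.73 (Col4a3) to 5.49 (Col4a2), with a median of 3.88, and among 8 others from 0.986 (Col9a2) to 7.02 (Col12a1), with a median of 2.72. The medians of the fibrillar and basement membrane genes were thus close, with a wider range among the fibrillar genes.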
